A study of Homo sapiens with 16 samples.

Results

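Solute carrier genes, whose symbols start with SLC, were followed across 16 arrays of the human breast cancer lines HCC70 and MDA-MB-468. The array annotation gave 388 of these symbols a transcript cluster of their own, a cluster being the set of probes that reports 1 transcript unit, among 33297 clusters in all. The 151 genes described here were chosen by measured values. Of them, 121 had a log2 signal that averaged 7.5 or above over the 16 arrays, and 30 more spanned at least 1.5 log2 units with at least 2 arrays at log2 6 or above. SLC30A1, SLC7A11, SLC3A2, SLC7A5, SLC7A1, SLC2A1, SLC2A3 and SLC16A3 were left out by name, 7 of which had a cluster of their own, and 230 symbols met neither condition. A mean over all arrays uses no difference between groups, so changes were tested for the 121 genes chosen by level. A gene just inside that threshold can still owe its place to the groups where it is high. The span does use such differences, so the 30 genes chosen by range are described with no test.

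HCC70 and MDA-MB-468 are established lines of basal-like breast tumours. Every sample was RNA of cells infected with a viral vector, exposed to polybrene, placed under puromycin selection and seeded to the same confluence the day before extraction. HCC70 carried a scrambled shRNA (2 sets of arrays, here a and b, titled shCont), an shRNA against EZH2 (shEZH2), an shRNA against EED (shEED), an empty vector (titled plKO Puro) or an EZH2 cDNA vector (titled fip EZH2). MDA-MB-468 carried a scrambled shRNA or shEZH2. Each of the 8 groups had 2 arrays. By the series text each treatment has a control of its own; set a was taken for shEZH2 and set b for shEED, which the labels do not state outright. All treated and control cells thus share viral infection and puromycin selection, and nothing says whether the duplicates were separate cultures. The titles plKO Puro and fip EZH2 do not show the same vector, so a difference of vector cannot be told apart from the EZH2 cDNA. The p-values then measure only the spread between these arrays, which may be technical.

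Solute carriers are membrane proteins that move ions, metals, sugars, amino acids, vitamins, nucleotides and metabolites across the plasma membrane and the membranes of mitochondria, Golgi, lysosomes and vesicles. They work by facilitated diffusion, by exchange, or by coupling a substrate to a sodium, proton or chloride gradient, and the family number in the symbol groups genes by protein relatedness. EZH2 is the methyltransferase of Polycomb repressive complex 2 (PRC2) and EED a core subunit that the complex needs; PRC2 marks histone H3 at repressed genes, many of them with CpG-rich promoters. The title of the series asks about the part of EZH2 in the identity of basal-like cells.

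The log2 signal of EZH2 itself was 10.01 ± 0.01 (SD, n = 2) in HCC70 scrambled set a against 8.54 ± 0.06 with shEZH2, and 10.11 ± 0.05 in MDA-MB-468 scrambled against 8.43 ± 0.07 with shEZH2. EED read 8.35 and 8.31 in set b against 7.54 and 7.49 with shEED. EZH2 read 9.94 on both empty vector arrays and 10.20 and 10.27 with the EZH2 cDNA, a difference that did not pass the test over all clusters (0.29 ± 0.07 SE, adjusted p = 0.0961, limma with Benjamini-Hochberg adjustment). Duplicates correlated at r = 0.9935 to 0.9975 and no array was a copy of its duplicate, since 5 to 17 of the 33297 values were equal within a pair. Equal values were not counted between arrays of different groups. All 10 measured basal-like epithelial markers lay above the floor of log2 6 on every array (means 9.28 to 12.80), while the hormone receptor genes ESR1 and PGR were below it on every array. ERBB2 (HER2), from the same list as ESR1 and PGR, lay above the floor on every array (mean 7.72, from 6.91 to 8.23). Of 8 fibroblast, 7 leukocyte and 5 endothelial markers with a cluster, 7, 5 and 4 were below the floor on every array. The exceptions above it on all arrays were COL1A1, at most 7.56, and CD14 (mean 10.23).

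Signals of different clusters depend on their probes and are not ranked against each other here. By family, 27 members were mitochondrial carriers (family 25), 22 moved nucleosides or nucleotide sugars, 21 metals, 16 amino acids, 15 inorganic ions, 12 vitamins, lipids or choline, 9 belonged to sugar families, 5 moved organic ions and drugs, 4 carboxylates, 2 peptides, 2 vesicle or lysosome substrates and 11 were orphans or of other families. The other 5 are no transporters. SLC4A1AP and SLC2A4RG encode an adaptor and a transcription regulator named after a carrier, SLC7A6OS lies opposite SLC7A6, SLC9A3-OT1 is a long noncoding RNA and SLC35E2A a transcribed pseudogene. Just inside the threshold on the mean lay SLC16A4 (7.55), SLC35D2 (7.55), SLC61A1 (7.52), SLC23A2 (7.51) and SLC12A4 (7.51), and just outside SLC22A5 (7.48), SLC6A8 (7.47), SLC12A9 (7.45), SLC25A26 (7.40) and SLC25A38 (7.38). Just inside the threshold on the span lay SLC25A14 (1.51), SLC2A11 (1.54), SLC25A20 (1.62), SLC60A2 (1.64) and SLC40A1 (1.87), and just outside SLC25A21 (1.45), SLC8B1 (1.45), SLC4A4 (1.43), SLC22A5 (1.38) and SLC15A3 (1.36).

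The carriers chosen by level had a median span over the 16 arrays close to that of other clusters, and a larger share with a wide span. The shares were not tested against each other. Their median span was 0.95 log2 units, against 0.91 over all 9378 clusters at the same mean level, and 28 of 121 (23.1%) spanned 1.5 or more, against 15.9% of those clusters. The smallest spans belonged to the copper importer gene SLC31A1 (0.29, from 9.57 to 9.86), the zinc transporter gene SLC39A7 (0.32), the Golgi UDP-GlcNAc transporter gene SLC35A3 (0.35), SLC7A6OS (0.35) and the mitochondrial phosphate carrier gene SLC25A3 (0.40). At the other end, SLC16A7, which encodes the monocarboxylate transporter MCT2, ran from 4.34, below the floor, to 9.30.

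Each treatment moved some of the 121 carriers, and the largest count came with EED knockdown. A gene was called when its adjusted p from limma was under 0.05, with the adjustment over all 16175 clusters that had at least 2 arrays at log2 6. With shEZH2 in HCC70, 6 carriers rose and 16 fell, against 7.3% of all tested clusters higher and 4.06% lower. As shares of the 121 these are 4.96% and 13.2%. With shEED in HCC70, 10 rose and 29 fell (8.26% and 24.0%), against 6.63% higher and 7.53% lower over all clusters. With shEZH2 in MDA-MB-468, 7 rose and 7 fell (5.79% each), against 2.73% and 5.57%. With EZH2 cDNA in HCC70, 2 rose (1.65%) and 0 fell, against 0.909% and 0.068%. At an unadjusted p under 0.05 limma gave 18 members in either direction. The share of all tested clusters at that unadjusted threshold was not counted, so the 18 cannot be set against these shares. The median change of the 121 was -0.04 with shEZH2 in HCC70, -0.05 with shEED, 0.01 with shEZH2 in MDA-MB-468 and 0.05 with EZH2 cDNA, against 0.01, 0.02, -0.02 and 0.02 over all tested clusters.

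How many calls were made depended on single arrays and on the control set. Without set a replicate 1 or 2 the 22 calls of EZH2 knockdown in HCC70 became 11 or 10, and 10 genes were called whichever array was left out. With set b as control the count was 49, and 16 of the 22 kept their call and sign, while 6 lost the call. The 39 calls of EED knockdown became 18 to 26 with 1 array left out, and 17 genes held throughout. With set a as control the count was 58, of which 33 of the 39 repeated their direction and 2 were called the opposite way. In MDA-MB-468 the 14 calls became 1 without scrambled replicate 2 and 5 without shEZH2 replicate 1, and SLC34A2 was the 1 gene that held whichever array was left out. Either call with EZH2 cDNA was lost whichever array was left out.

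**Figure D1:**
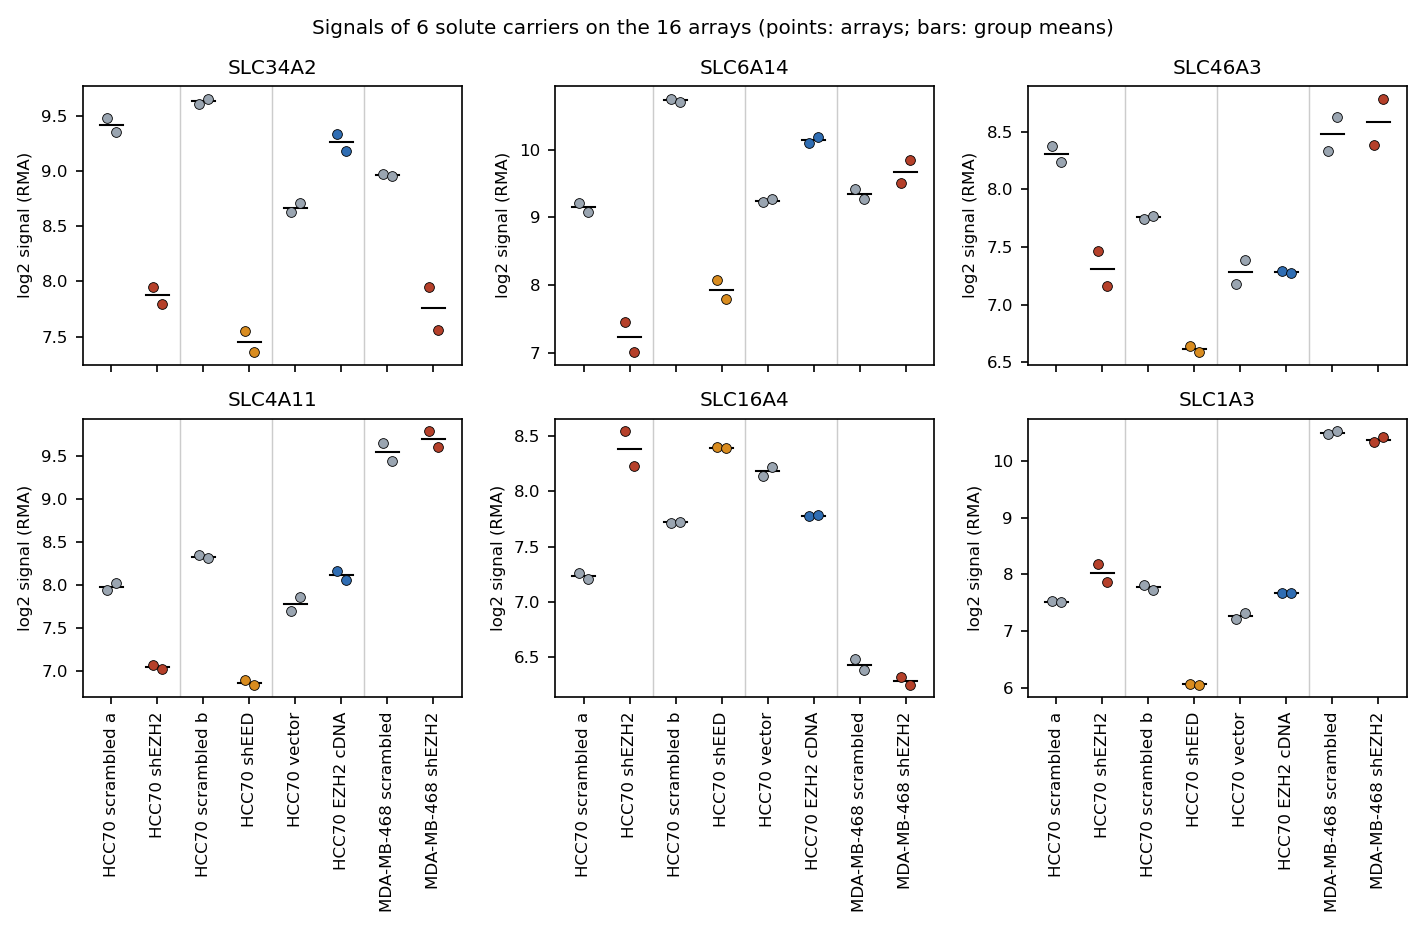
Log2 RMA signal (vertical axis) of 6 carriers on each of the 16 arrays, by group (horizontal axis); points are arrays, bars are means of 2 arrays, and vertical lines part the treatment and control pairs. SLC34A2, SLC6A14 and SLC4A11 lay lower on all 4 HCC70 knockdown arrays than on all 6 HCC70 control arrays, SLC34A2 also fell in MDA-MB-468, and SLC1A3 went opposite ways with shEZH2 and shEED.

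Among carriers of inorganic ions, the phosphate transporter gene SLC34A2 fell with the PRC2 knockdowns in both lines. SLC34A2 encodes a sodium-dependent phosphate importer of the apical membrane of lung, intestinal and mammary epithelium. In HCC70 its log2 signal was 9.48 and 9.35 in set a, 7.95 and 7.80 with shEZH2, 9.61 and 9.66 in set b, and 7.55 and 7.36 with shEED. With the empty vector it was 8.62 and 8.71, and with the EZH2 cDNA 9.34 and 9.18. In MDA-MB-468 it was 8.98 and 8.95 with the scrambled shRNA and 7.95 and 7.56 with shEZH2. The treated and control arrays of all 4 comparisons did not overlap, and the empty vector arrays were the lowest of the 6 HCC70 control arrays. The EZH2 cDNA arrays lay above the empty vector arrays but below all HCC70 scrambled arrays. EED knockdown lowered SLC34A2 by 4.53-fold (-2.18 ± 0.12 SE, adjusted p = 5.27e-07), EZH2 knockdown in HCC70 by 2.91-fold (adjusted p = 1.09e-05) and in MDA-MB-468 by 2.31-fold (-1.21 ± 0.12, adjusted p = 0.000334). The MDA-MB-468 call held whichever array was left out, but not in a fit of the compared arrays alone. SLC34A2 rose by 1.51-fold with the EZH2 cDNA (0.59 ± 0.12, adjusted p = 0.0475), but leaving out any 1 of the 4 arrays lost that call (adjusted p = 0.106 to 0.39). SLC34A2 was the 1 member called in the same direction with shEZH2 in both lines, and the difference between its 2 falls did not pass the test (-0.33 ± 0.17, adjusted p = 0.223). The share of all tested clusters called alike in both lines was not counted.

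SLC6A14, an amino acid transporter gene, had the largest falls of the 121 members in both HCC70 knockdowns. The protein takes up neutral and cationic amino acids with sodium and chloride. Its signal was 9.22 and 9.08 in set a against 7.46 and 7.01 with shEZH2, and 10.76 and 10.71 in set b against 8.07 and 7.79 with shEED. It was 9.23 and 9.27 with the empty vector and 10.10 and 10.19 with the EZH2 cDNA. In MDA-MB-468 it was 9.41 and 9.27 with the scrambled shRNA and 9.51 and 9.85 with shEZH2. SLC6A14 fell by 3.77-fold with shEZH2 (-1.91 ± 0.15, adjusted p = 1.02e-05) and by 6.96-fold with shEED (-2.80 ± 0.15, adjusted p = 3.82e-07), and rose by 1.86-fold with the EZH2 cDNA (0.90 ± 0.15, adjusted p = 0.0179). The last call ended without any of its 4 arrays (adjusted p = 0.072 to 0.168). In MDA-MB-468 the change was 0.33 ± 0.15 (adjusted p = 0.188), and the HCC70 change minus this one was -2.25 ± 0.21 (adjusted p = 0.000107, a test of the difference). The control sets themselves differed: set b was above set a (1.58 ± 0.15, adjusted p = 3.34e-05). Against the other set, the fall with shEZH2 was -3.50 and that with shEED -1.22, so the direction was the same and the size was not.

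SLC34A2 and SLC6A14 were thus the only 2 of the 121 members called down in both HCC70 knockdowns and called up with the EZH2 cDNA, with the control pairs as taken here. The share of all tested clusters with this pattern was not counted. Both calls with the cDNA were lost when any 1 array was left out. For neither gene did the cDNA arrays lie above all scrambled arrays of HCC70. Their annotated promoters differ in base composition, as the following RefSeq sequences (GRCh38.p14, 250 bases before to 50 after a start) show. They are printed 5′ to 3′ on the gene's strand, because these genes and the next ones moved in both knockdowns, with every CG dinucleotide in capitals. SLC34A2 has 2 starts in the table, on the plus strand at chr4:25655601-25655900 and chr4:25656214-25656513, and SLC6A14 has 1, on the plus strand at chrX:116436356-116436655.
SLC34A2, first start: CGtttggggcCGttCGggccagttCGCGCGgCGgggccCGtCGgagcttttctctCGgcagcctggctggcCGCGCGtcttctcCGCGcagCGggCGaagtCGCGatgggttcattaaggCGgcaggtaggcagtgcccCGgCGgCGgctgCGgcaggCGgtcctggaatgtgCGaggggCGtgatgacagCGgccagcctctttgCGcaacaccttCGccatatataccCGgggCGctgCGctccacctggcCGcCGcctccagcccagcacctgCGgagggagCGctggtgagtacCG
SLC34A2, second start: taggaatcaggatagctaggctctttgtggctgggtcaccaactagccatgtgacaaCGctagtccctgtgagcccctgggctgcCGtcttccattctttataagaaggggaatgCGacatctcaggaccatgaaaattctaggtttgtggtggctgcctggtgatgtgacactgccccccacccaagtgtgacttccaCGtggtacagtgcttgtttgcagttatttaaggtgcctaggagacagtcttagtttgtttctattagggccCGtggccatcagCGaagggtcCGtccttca
SLC6A14: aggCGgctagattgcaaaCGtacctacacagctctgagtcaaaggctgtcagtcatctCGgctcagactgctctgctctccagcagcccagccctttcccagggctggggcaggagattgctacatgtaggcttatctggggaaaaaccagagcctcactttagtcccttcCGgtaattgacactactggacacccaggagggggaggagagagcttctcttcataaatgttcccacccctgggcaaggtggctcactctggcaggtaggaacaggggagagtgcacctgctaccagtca

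The first SLC34A2 start has 38 CG and the second 7, while SLC6A14 has 4. For comparison, the 146 promoters of the 102 members by level that matched had a median of 27 CG, the 7867 promoters of all genes with a cluster at mean log2 7.5 or above 26, and the whole table of 35116 promoters 14. At most 10 CG were found in 14.4%, 14.9% and 45.3% of these sets, so the SLC6A14 start and the second SLC34A2 start are among the CG-poor ones. The letters TATAAA, on either strand, occur in the second SLC34A2 start and in 4.11% of the promoters of members by level, 6.32% of those of all genes at that level and 11.5% of the table. The letters GGGCGG, on either strand, are in 68.5% of the promoters of members by level, in 68.4% of those of all genes at that level and in none of these 3. A match says only that the letters are there.

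Others of the ion carriers fell in HCC70 as well. SLC4A11, a bicarbonate-family transporter gene known from corneal dystrophy, read 7.94 and 8.02 in set a against 7.08 and 7.02 with shEZH2, and 8.35 and 8.31 in set b against 6.89 and 6.84 with shEED. It fell by 0.93 ± 0.10 (adjusted p = 8.74e-05) and by 1.46 ± 0.10 (adjusted p = 1.94e-06). In MDA-MB-468, where its level was higher (9.65 and 9.44 scrambled, 9.78 and 9.60 with shEZH2), the change was 0.15 (adjusted p = 0.357), and the difference between the lines was -1.08 ± 0.13 (adjusted p = 0.000621). Of the 10 ion carriers chosen by level, 3 fell and 7 did not pass the test with shEZH2 in HCC70, and 5 fell and 5 did not pass it with shEED, where 4.06% and 7.53% of all tested clusters fell. The third with shEZH2 was SLC12A2, the sodium-potassium-chloride cotransporter gene (-0.27), which with shEED changed by -0.28; both calls ended with an array left out (adjusted p up to 0.186 and 0.177).

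SLC20A2, a phosphate transporter gene of another family than SLC34A2, shows how far a direction can rest on the control. It read 7.95 and 7.97 in set a, 7.85 and 7.56 with shEZH2, 9.37 and 9.27 in set b, 8.80 and 8.68 with shEED, 9.13 and 9.05 with the empty vector and 9.51 and 9.42 with the EZH2 cDNA. Set b was 2.56-fold above set a (1.36 ± 0.10, adjusted p = 4.98e-06). Against set b the shEED change was -0.58 ± 0.10 (adjusted p = 0.00233), and against set a it was 0.78 ± 0.10 (adjusted p = 0.000121). SLC25A12, the mitochondrial aspartate-glutamate carrier gene, turned as well, from 0.30 against set b to -0.34 against set a.

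Of the 10 amino acid carriers chosen by level, 1 rose and 1 fell with shEZH2 in HCC70, 1 rose and 4 fell with shEED, and 2 rose with shEZH2 in MDA-MB-468. Over all tested clusters, 7.3% rose and 4.06% fell in the first, 6.63% and 7.53% in the second, and 2.73% rose in the third. SLC1A3, the glutamate transporter gene known from glia (EAAT1), read 7.52 on both set a arrays against 8.19 and 7.87 with shEZH2, and 7.81 and 7.73 in set b against 6.07 and 6.05 with shEED. It rose by 0.51 ± 0.10 with shEZH2 (adjusted p = 0.00572) and fell by 1.71 ± 0.10 with shEED, 3.28-fold (adjusted p = 5.27e-07). Against set b the shEZH2 change was 0.26 (adjusted p = 0.0649), and against set a the shEED change was still -1.46. The difference between the 2 changes was not tested. SLC6A9, the glycine transporter gene, read 8.92 ± 0.11 in set b (SD, n = 2) against 10.02 and 9.92 with shEED, a 2.07-fold rise (1.05 ± 0.12, adjusted p = 0.000113) that was 0.48 (adjusted p = 0.00751) against set a. In MDA-MB-468 SLC6A9 read 8.32 and 8.34 against 8.96 and 8.58 (0.43, adjusted p = 0.042), a call lost without either scrambled array or without shEZH2 replicate 1 (adjusted p = 0.0967, 0.194 and 0.209). The glutamine and alanine transporter genes SLC38A2, SLC38A1 and SLC1A5, whose means were 11.55, 10.93 and 10.12, were called in none of the 4 treatments by limma.

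Among the carboxylate carriers, SLC16A4 was higher with both HCC70 knockdowns than in their controls. It lay just inside the threshold on the mean (7.55), and its high knockdown arrays helped to bring it in. Its changes with the knockdowns are therefore described with no test, and its calls in the counts are not read as results. SLC16A4, a monocarboxylate transporter family member of uncertain substrate, read 7.26 and 7.21 in set a against 8.54 and 8.23 with shEZH2, and 7.72 on both set b arrays against 8.40 and 8.39 with shEED. It rose by 2.22-fold (1.15 ± 0.10) and by 1.60-fold (0.67 ± 0.10), and the direction was the same against the other control set. The empty vector arrays, at 8.14 and 8.22, came within reach of the lowest knockdown array at 8.23, so the knockdown arrays lay clear of both scrambled sets and barely above the empty vector. With the EZH2 cDNA it read 7.78 on both arrays (-0.40, adjusted p = 0.0901). SLC16A14 read 7.79 and 7.72 in set b and 6.82 and 6.87 with shEED, a fall of 0.91 ± 0.09 (adjusted p = 6.95e-05).

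Of 10 vitamin, lipid and choline carriers chosen by level, 4 fell and 6 did not pass the test with shEZH2 in HCC70, and 5 fell and 5 did not pass it with shEED. Over all tested clusters 4.06% and 7.53% fell, and the class was not tested as a set. SLC46A3, a lysosomal membrane transporter gene placed here by its family number, read 8.38 and 8.24 in set a against 7.46 and 7.16 with shEZH2, and 7.75 and 7.77 in set b against 6.64 and 6.59 with shEED. Its falls were 1.00 ± 0.14 (adjusted p = 0.00111) and 1.15 ± 0.14 (adjusted p = 0.00031). The empty vector arrays of SLC46A3 read 7.18 and 7.39, about as low as the shEZH2 arrays. Against set b the shEZH2 change was -0.45 (adjusted p = 0.0393). SLC44A2, a choline transporter-like gene, read 11.44 and 11.45 in set b against 10.65 and 10.58 with shEED (-0.83 ± 0.08, adjusted p = 4.09e-05). SLC19A2, the thiamine transporter gene, changed by -0.58 with shEZH2 and -0.53 with shEED, and the riboflavin transporter gene SLC52A3 by -0.29 and -0.41; each of these calls ended with 1 array left out (adjusted p up to 0.252). SLC5A6, which sits in a sugar family by number but encodes the sodium-dependent multivitamin transporter, fell by 0.51 ± 0.09 with shEZH2 (adjusted p = 0.00308) from 10.19 and 10.22 to 9.77 and 9.62.

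SLC46A3 and SLC16A4 are shown with their promoters because the first fell and the second rose in both knockdowns. SLC46A3 has a single start in the table, on the minus strand at chr13:28718921-28719220, and SLC16A4 one on the minus strand at chr1:110390977-110391276.
SLC46A3: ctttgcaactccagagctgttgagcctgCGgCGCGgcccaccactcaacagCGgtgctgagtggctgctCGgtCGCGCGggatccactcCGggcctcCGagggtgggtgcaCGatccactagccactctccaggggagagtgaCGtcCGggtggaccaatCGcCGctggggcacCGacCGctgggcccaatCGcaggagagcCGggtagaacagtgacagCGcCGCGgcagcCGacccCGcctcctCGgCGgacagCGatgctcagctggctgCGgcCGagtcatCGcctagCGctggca
SLC16A4: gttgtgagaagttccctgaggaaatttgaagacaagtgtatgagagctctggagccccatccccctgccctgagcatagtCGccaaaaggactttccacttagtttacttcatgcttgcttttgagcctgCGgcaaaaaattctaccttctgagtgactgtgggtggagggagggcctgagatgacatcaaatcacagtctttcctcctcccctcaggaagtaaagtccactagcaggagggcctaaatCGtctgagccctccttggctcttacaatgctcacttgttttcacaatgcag

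SLC46A3 has 31 CG in this window and SLC16A4 has 3. Over the 10 genes called down in both HCC70 knockdowns, 8 matched the table with 11 starts, which hold 4 to 47 CG and a median of 24. The 2 genes called up in both, SLC16A4 and SLC2A4RG, have 3 and 56. The shares of all tested clusters called alike in both knockdowns were not counted. Both directions therefore include CG-rich and CG-poor starts.

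**Figure D2:**
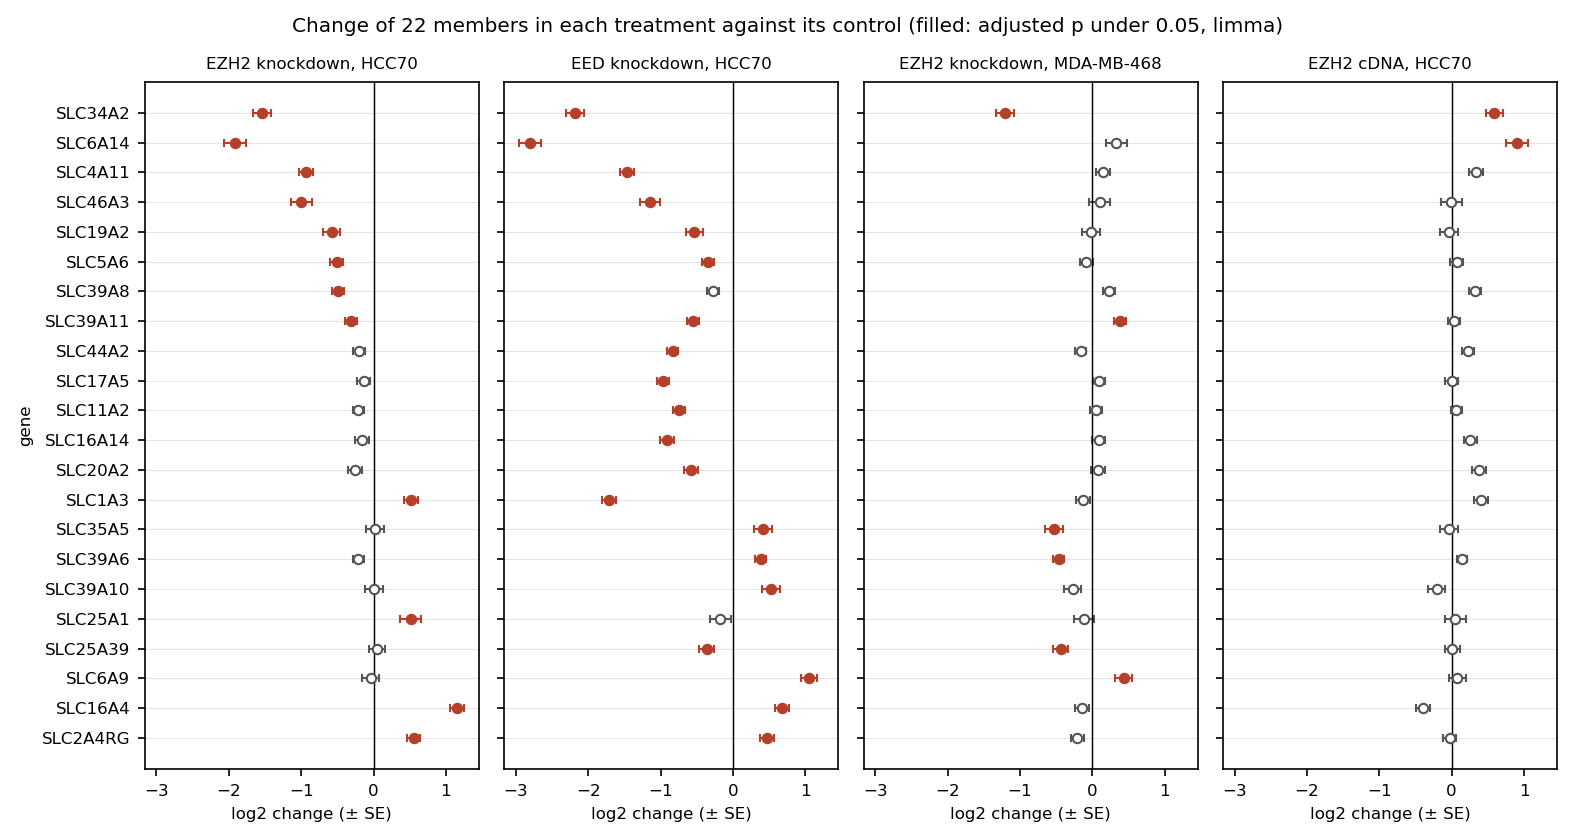
Log2 change (horizontal axis, ± SE from limma, 2 arrays per group) of 22 carriers (vertical axis) in the 4 treatments, each against its control; filled points passed an adjusted p under 0.05. SLC34A2 lies left of 0 in all 3 knockdowns and right of 0 with the EZH2 cDNA, and most genes lie near 0 with the EZH2 cDNA.

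Metal carriers gave calls in both directions. With shEED, 3 of the 18 chosen by level rose, 4 fell and the test left 11 uncalled; with shEZH2 in HCC70, 2 fell. These shares were not tested against the 6.63% and 7.53% of all clusters that rose and fell with shEED, or the 4.06% that fell with shEZH2. SLC11A2, the iron importer gene (DMT1), read 8.46 and 8.44 in set b against 7.64 and 7.77 with shEED (-0.74 ± 0.08, adjusted p = 7.35e-05). SLC39A8, a zinc and manganese importer gene, read 10.08 and 9.97 in set a against 9.62 and 9.44 with shEZH2 (-0.49 ± 0.08, limma adjusted p = 0.00306). The lowest of the 6 HCC70 control arrays, at 9.395, lay below both shEZH2 arrays, and the call did not hold under every alternative of the processing. In MDA-MB-468 SLC39A8 read 9.33 and 9.36 against 9.54 and 9.61, and the changes differed between the lines by -0.73 ± 0.12 (limma adjusted p = 0.00342). SLC39A11, another zinc transporter gene, fell from 9.32 and 9.31 to 8.84 and 8.68 with shEED (-0.56 ± 0.08, adjusted p = 0.000922). With shEZH2 it changed by -0.31 in HCC70 and 0.38 in MDA-MB-468, calls that were lost with 1 array left out (adjusted p up to 0.168 and 0.0934), while their difference of -0.69 ± 0.12 (adjusted p = 0.00416) was not. The zinc importer genes SLC39A6 and SLC39A10 changed by 0.38 and 0.52 with shEED, and SLC39A6 by -0.46 with shEZH2 in MDA-MB-468. Each of these 3 calls was lost without at least 1 array, among them set b replicate 2 (0.058 and 0.0995) and MDA-MB-468 scrambled replicate 2 (0.0577).

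Mitochondrial carriers were the largest family, and none of their calls with the treatments held whichever array was left out. Of 23 chosen by level, 2 rose and 3 fell with shEZH2 in HCC70, 3 rose and 2 fell with shEED, and 2 fell with shEZH2 in MDA-MB-468. Over all tested clusters, 7.3% rose and 4.06% fell, 6.63% rose and 7.53% fell, and 5.57% fell, in that order. The citrate carrier gene SLC25A1 is an example: it read 9.37 and 9.29 in set a and 10.11 and 9.57 with shEZH2 (0.51 ± 0.14, adjusted p = 0.0398), and the call was lost without either set a array or without shEZH2 replicate 1, the higher array (adjusted p = 0.116, 0.203 and 0.2). SLC25A39, the mitochondrial glutathione importer gene, changed by -0.36 with shEED and by -0.44 with shEZH2 in MDA-MB-468 (adjusted p = 0.0417 and 0.0304). The ADP/ATP carrier gene SLC25A5 (mean 12.04) and SLC25A3 were called in none of the 4 treatments by limma.

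Of the 20 nucleoside and nucleotide sugar carriers chosen by level, 1 rose and 2 fell with shEED, and 1 rose and 1 fell with shEZH2 in MDA-MB-468. These counts are near the shares of all tested clusters, 6.63% and 7.53% with shEED and 2.73% and 5.57% in MDA-MB-468. The falls with shEED were those of the nucleoside transporter genes SLC29A1 (-0.50 ± 0.09, adjusted p = 0.00292) and SLC29A2 (-0.48, lost without either set b array or without shEED replicate 2, adjusted p = 0.0653, 0.112 and 0.129). SLC35A5 changed by 0.41 with shEED and by -0.53 with shEZH2 in MDA-MB-468, both lost without 1 array (adjusted p up to 0.218 and 0.186). Among the lysosomal carriers, SLC17A5, the sialic acid exporter gene, read 8.20 and 8.21 in set b against 7.23 and 7.25 with shEED (-0.96 ± 0.08, adjusted p = 2.09e-05). Of the genes that are no transporters, SLC2A4RG rose by 0.55 ± 0.09 with shEZH2 (adjusted p = 0.00312) from 7.96 and 7.80 to 8.44 and 8.43, and changed by 0.47 with shEED (adjusted p = 0.00574, but 0.0612 without set b replicate 2 and 0.0667 without shEED replicate 2).

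Across the 3 control groups and 2 knockdowns of HCC70, 9 carriers were lower on all 4 knockdown arrays than on all 6 control arrays, 7.44% of the 121, and 7 were higher, 5.79%. The same was true of 2.08% and 3.84% of all tested clusters. The 9 were SLC34A2, SLC6A14, SLC4A11, SLC17A5, SLC11A2, SLC39A11, SLC37A3, SLC25A29 and SLC9D1. The widest gap was that of SLC6A14, from at most 8.07 on the knockdown arrays to at least 9.08 on the controls, followed by SLC34A2 (7.95 to 8.62) and SLC4A11 (7.08 to 7.70). The 7 were SLC16A4, SLC2A4RG, SLC35F2, SLC25A46, SLC10A3, SLC25A43 and SLC31A1, with narrow gaps such as 8.22 to 8.23 for SLC16A4 and 8.05 to 8.17 for SLC2A4RG. This look at 6 against 4 arrays was chosen after the values had been seen.

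Between the lines, 70 of the 106 carriers that averaged 7.5 or above in both lines were called, with shares near those of other clusters. HCC70 scrambled arrays of both sets were set against the 2 MDA-MB-468 scrambled arrays. Of the 121 carriers, 42 were higher in HCC70 and 41 lower, 34.7% and 33.9%, against 32.1% and 37.1% of all tested clusters. The mean that chose the carriers counts 12 HCC70 and 4 MDA-MB-468 arrays, and 11 of the 121 averaged under 7.5 in MDA-MB-468 and 4 in HCC70. These 15 entered through 1 line, so their difference is part of how they were chosen and is described with no test. The counts over the 121 include 13 calls among them, which are not read as results. Of the other 106, 33 were higher in HCC70 and 37 lower, 31.1% and 34.9%. Among the 15, SLC16A7 read 8.88 to 9.30 on the HCC70 scrambled arrays and 4.84 and 4.34 in MDA-MB-468, below the floor, so its difference is not sized. SLCO4A1, an organic anion transporter gene, read 8.34 to 8.53 against 7.29 and 7.03, and the noncoding SLC9A3-OT1 8.39 to 8.54 against 6.84 and 6.99. SLC1A3 went the other way, with 7.52 to 7.81 in HCC70 against 10.49 and 10.53. No member by level other than SLC16A7 had a group mean under log2 6.

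**Figure D3:**
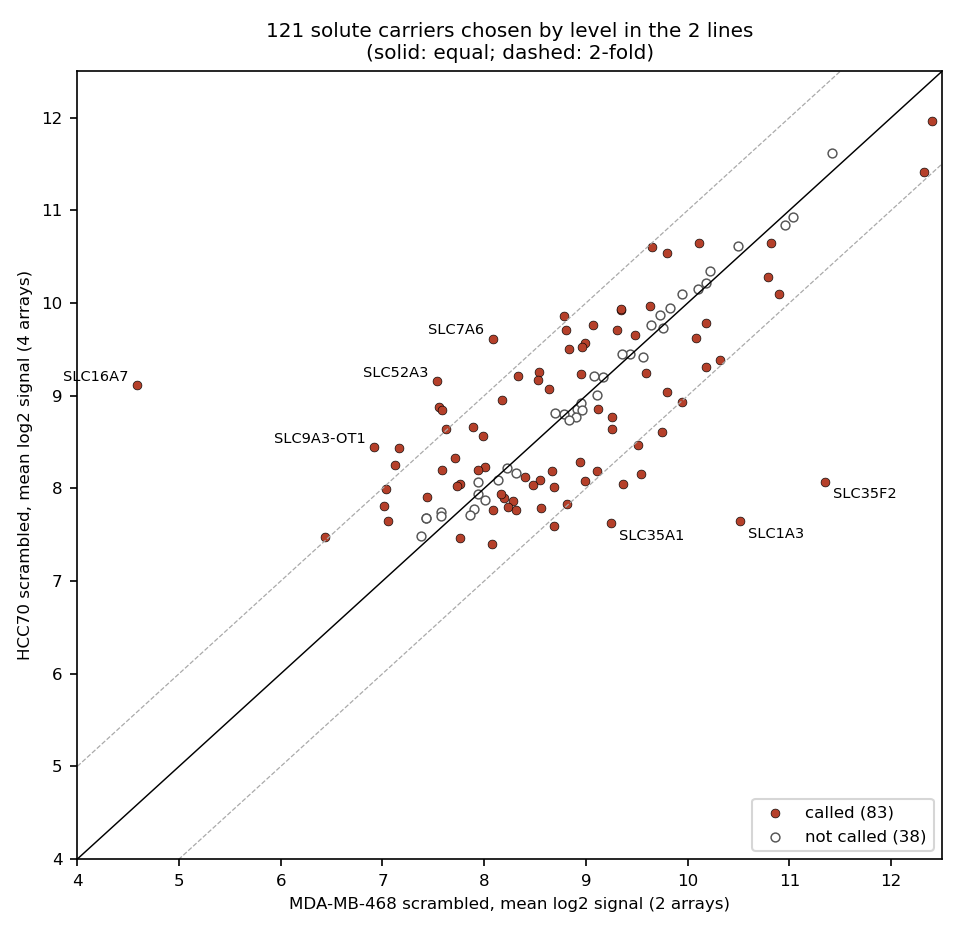
Mean log2 signal of the 121 carriers chosen by level on the 2 MDA-MB-468 scrambled arrays (horizontal axis) and on the 4 HCC70 scrambled arrays (vertical axis); each point is a gene, filled where called, with lines of equal signal and of a 2-fold difference. SLC16A7 stands apart above the lines, and SLC35F2 and SLC1A3 below them.

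Among the 106, the genes higher in HCC70 included the riboflavin transporter gene SLC52A3 (8.95 to 9.38 against 7.55 and 7.51; 1.62 ± 0.07, adjusted p = 2.06e-09), the cationic amino acid exchanger gene SLC7A6 (1.53 ± 0.09), the GDP-fucose transporter gene SLC35C1 (1.32) and SLC12A8 (1.26). Lower in HCC70 was SLC35F2, a carrier of the nucleotide sugar family, at 7.99 to 8.16 on the 4 HCC70 arrays against 11.38 and 11.32, a difference of -3.28 ± 0.12 (adjusted p = 4.11e-10). The Golgi CMP-sialic acid transporter gene SLC35A1 differed by -1.62 ± 0.13, SLC4A11 by -1.39 ± 0.08, the ADP/ATP carrier gene SLC25A4 by -1.32 ± 0.12, the inositol transporter gene SLC5A3 by -1.14 ± 0.14 and the magnesium transporter gene SLC41A1 by -1.10 ± 0.08. The differences named here among the 106 were called whichever scrambled array was left out. Classes were counted over all 121 carriers, so the 15 that entered through 1 line are included. Of 20 nucleoside and nucleotide sugar carriers 1 was higher and 10 lower in HCC70, and of 23 mitochondrial carriers 6 were higher and 10 lower. No class was tested against the 32.1% and 37.1% of all clusters.

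Many of the 30 carriers chosen by range alone differed between the lines. This is a description, since a wide span over arrays of both lines chose them. Their span over the 16 arrays ran from 1.51 to 5.52 log2 units. Between the scrambled groups, 17 of the 30 were at least 2-fold lower in HCC70 than in MDA-MB-468 and 5 at least 2-fold higher. These counts include genes whose signal lay under log2 6 in either line, such as SLC1A6 in HCC70. The share of all clusters with such a span that differed in this way was not counted. SLC1A6, the glutamate transporter gene known from Purkinje cells (EAAT4), read 4.40 to 4.85 on the 12 HCC70 arrays and 9.53 to 9.92 on the 4 MDA-MB-468 arrays, whatever the treatment. SLC28A3, a concentrative nucleoside transporter gene, read at most 4.84 in HCC70 and 6.51 to 7.14 in MDA-MB-468. The mitochondrial SLC25A27 read 4.07 to 4.89 against 6.74 to 7.03, and the drug exporter gene SLC47A1 4.02 to 4.56 against 5.96 to 6.88. SLC39A2, a zinc transporter gene, went the other way, 7.45 to 8.52 in HCC70 against 4.79 to 5.11. Signals under log2 6 were not shown to be above background, so these folds are not sized.

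Several of the 30 moved with the treatments, which is a description, since such differences chose them. SLC44A4, a choline transporter-like gene that is also a thiamine pyrophosphate carrier, read 8.64 and 8.48 in set a, 7.40 and 7.62 with shEZH2, 8.37 and 8.45 in set b, 6.21 and 6.32 with shEED, 7.65 and 7.38 with the empty vector and 8.43 and 8.30 with the EZH2 cDNA. SLC5A1, the sodium-glucose cotransporter gene (SGLT1), read 6.48 and 6.33 in set a, 5.44 and 4.84 with shEZH2, 8.40 and 8.31 in set b and 6.27 and 6.59 with shEED, so the shEED arrays overlapped the set a arrays. It read 7.97 and 7.92 with the empty vector and 8.42 and 8.21 with the cDNA. SLC15A2, the peptide transporter gene PEPT2, read 6.37 and 6.55 in set a, 5.25 and 5.23 with shEZH2, 6.99 and 6.86 in set b, 4.78 and 4.66 with shEED, 6.98 and 6.78 with the empty vector and 7.30 and 7.17 with the cDNA. SLC44A4, SLC5A1 and SLC15A2 were each lower in both knockdowns and higher with the cDNA than in their own controls. The share of all clusters with this pattern was not counted. For SLC44A4 the empty vector arrays overlapped the shEZH2 arrays, and its cDNA arrays did not lie above the scrambled arrays. The cDNA arrays of SLC5A1 overlapped set b. The prostaglandin transporter gene SLCO2A1 stood out with shEZH2 and not with shEED. It read 8.03 and 7.75 with shEZH2 in HCC70 against 5.14 to 5.84 on the 4 scrambled arrays, 5.33 and 4.80 with shEED, and 6.94 and 7.02 with shEZH2 in MDA-MB-468 against 6.08 and 6.05. SLC1A1, a neuronal and epithelial glutamate transporter gene, was lowest with shEED, at 6.10 and 6.13 against 8.04 and 8.12 in set b.

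**Figure D4:**
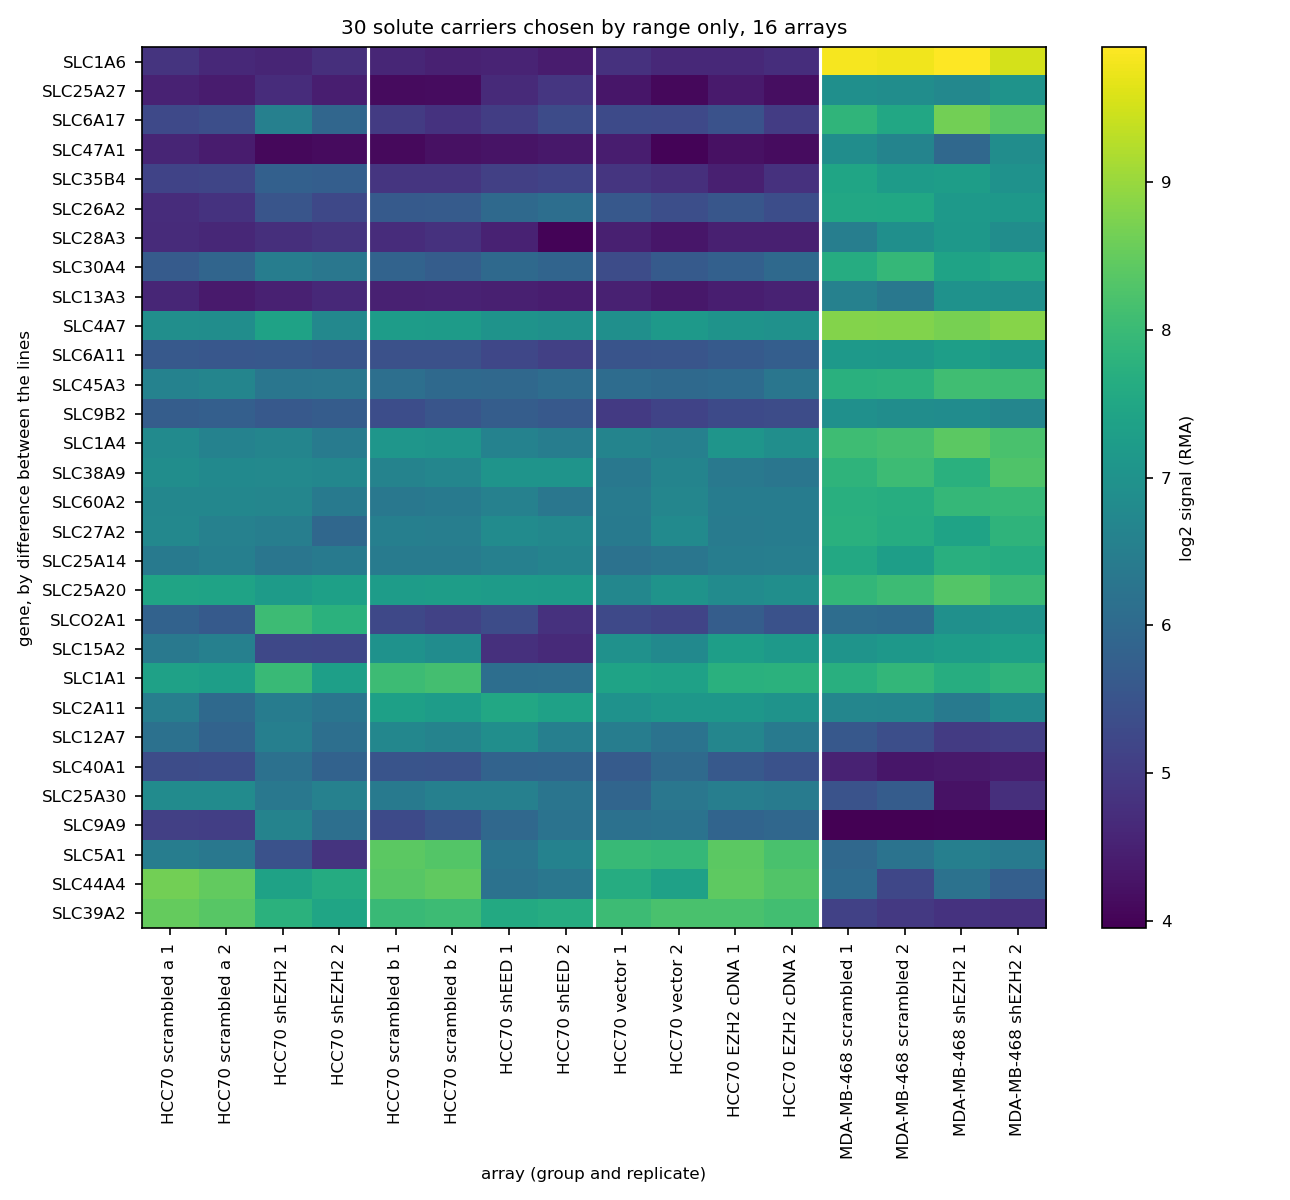
Log2 RMA signal (colour) of the 30 carriers chosen by range alone (rows, ordered by the difference between the lines) on the 16 arrays (columns, by group and replicate; white lines part the treatment and control pairs). The upper rows, SLC1A6 first, are brighter on the 4 MDA-MB-468 arrays, and the bottom rows, SLC39A2 last, are brighter on the HCC70 arrays.

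The difference between the 2 lines in their response to shEZH2 was tested as a contrast of the same model. Of the 121 carriers, 5 had a higher change in HCC70 than in MDA-MB-468 and 10 a lower one, 4.13% and 8.26%, against 8.97% and 4.27% of all tested clusters. SLC6A14, SLC46A3 and SLC4A11 were the lowest, at -2.25, -1.10 and -1.08, and SLC16A4 the highest at 1.30 ± 0.13. SLC16A4 lay just inside the threshold on the mean, and its shEZH2 arrays in HCC70 helped to bring it in. Its call is in these counts but is not read as a result. The 15 calls became 8 without set a replicate 2, and 9 without set a replicate 1 or MDA-MB-468 scrambled replicate 2.

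The 2 scrambled sets of HCC70, which carry the same kind of control, differed from each other in 31 of the 121 carriers, 20 higher in set b and 11 lower, 16.5% and 9.09%, against 15.3% and 7.41% of all tested clusters. SLC6A14 and SLC20A2, at 1.58 and 1.36, led the list, followed by the copper transporter gene SLC31A2 (7.69 and 7.52 in set a against 8.47 and 8.51 in set b; 0.89 ± 0.11, adjusted p = 0.000234). SLC25A12 differed by -0.64 ± 0.09. With 1 array left out the count fell to between 10 and 16, the lowest without set b replicate 2. What separates the sets is not given in the labels.

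Other transport genes, from lists of proton pump, sodium pump and ABC transporter genes and of transporter chaperones, are given by their counts, to be read against the shares of all tested clusters: 7.3% higher and 4.06% lower with shEZH2 in HCC70, 6.63% and 7.53% with shEED, 0.909% higher with the EZH2 cDNA, and 32.1% higher in HCC70 than in MDA-MB-468. Of 20 vacuolar proton pump subunits tested, 3 rose and 2 fell with shEZH2 and 3 fell with shEED. Of 14 ABC transporters tested, 1 fell with shEZH2, and 1 rose and 1 fell with shEED. Of 5 sodium pump and 4 chaperone genes tested, 1 each fell with shEED. The 6 left-out solute carriers that were tested had 3 rises with shEED and 4 higher values in HCC70 than in MDA-MB-468. Basal-like epithelial markers moved too: of 10 tested, 3 fell with shEZH2 in HCC70, 6 fell with shEED and 2 rose with the EZH2 cDNA, and their part in the changes of the carriers was not tested. In bulk RNA, fewer cells that express a carrier and less of its RNA per cell cannot be told apart.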

How the data were processed

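RNA of 16 samples was hybridised to Affymetrix Human Gene 1.0 ST arrays. The authors deposited log2 signals per transcript cluster, made by RMA in Affymetrix Expression Console per the submitters' processing notes; for versions and cluster build, not given in the sources used here. RMA fits all arrays together and compresses low signals. The platform annotation, with symbols updated through RefSeq, gave 19460 clusters 1 symbol, 1754 several and 12083 none, and members were named only from clusters with 1 symbol. The deposited values were used with no further normalization. One model of 8 group means was fitted to 16175 clusters with at least 2 arrays at log2 6 (17122 were not tested) with limma 3.58.1 in R 4.3.3 (8 residual and 3.69 prior degrees of freedom), and p-values were adjusted by Benjamini-Hochberg over these clusters. The fit was tested on simulated data. Array numbers, not depth, limit the precision: each group has 2 arrays, and scan batches could not be tested. Genes were named by a rule: up to 8 called members with the largest rise and 8 with the largest fall per comparison, the 20 widest of those chosen by range, the 3 of highest mean per class, the 5 nearest each threshold on either side, the 5 of smallest span and those called alike in both lines. Others named, and the classes of newer families, were chosen after their values or symbols were seen. The members, lists and tests were chosen with earlier results of these data known. Alternatives were another floor, centring, quantile normalization, fits of the compared arrays alone, other control sets, a replicate block and leaving out each array. Promoters came from RefSeq on GRCh38.p14, in which 127 of 151 members matched.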

Additional observations from a re-analysis of the deposited data

Results flagged for a closer look

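In 15 of the 121 carriers chosen by level, the change with shEZH2 differed between HCC70 and MDA-MB-468 by a test of the difference itself (limma, adjusted p under 0.05). The change was lower in HCC70 for SLC6A14 (-2.25), SLC46A3 (-1.10), SLC4A11 (-1.08), SLC39A8 (-0.73), SLC39A11 (-0.69), SLC35D4 (-0.61), SLC7A6 (-0.47), SLC35A4 (-0.47), SLC5A6 (-0.43) and SLC44A3 (-0.42). It was higher in HCC70 for SLC16A4 (1.30), SLC2A4RG (0.76), SLC1A3 (0.64), SLC9A3-OT1 (0.45) and SLC25A43 (0.44). SLC16A4, SLC46A3, SLC39A11, SLC2A4RG, SLC4A11, SLC39A8, SLC1A3 and SLC6A14 were called whichever array was left out, and the other 7 were not. The call of SLC16A4 is not read as a result, since its shEZH2 arrays in HCC70 helped to bring it into the 121.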

How the results depend on the processing

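Of the 92 tested changes named, 45 kept their call under every alternative, with 900 values on the same side of the threshold and 224 that lost it. Outside those 92, the EED knockdown changes of SLC20A2 (-0.58) and SLC25A12 (0.30) reversed with set a as control, to 0.78 and -0.34. For EZH2 knockdown in HCC70 the 22 calls became 13 with no floor, 12 with arrays centred on their medians, 5 with only the arrays compared, 49 with set b as control, 35 with both sets, and 10 to 24 with 1 array left out. In MDA-MB-468 the 14 calls became 6, 8 and 0 under the first 3 of these, and 1 to 10 with 1 array left out. The 39 calls of EED knockdown became 18 to 26 with 1 array left out. The 2 calls with the EZH2 cDNA became 1 with no floor, 1 when centred, 0 with only the arrays compared and 0 without any array. Between the scrambled sets the 31 calls became 51 with only those arrays and 10 to 16 with 1 left out. The 15 differences between the lines in response became 8 with no floor, 8 when centred, 23 after another quantile normalization, 5 with only the arrays compared, 29 with set b, 23 with both sets and 8 to 19 with 1 array left out. The causes were not tested; the fit of the compared arrays has fewer samples. HCC70 against MDA-MB-468 gave 69 to 87 calls throughout. Same-numbered arrays did not deviate together (r = -0.0443 to 0.0774), so the numbers do not pair them; a replicate block gave 24, 15, 38, 2, 83, 32 and 18 calls for EZH2 knockdown in HCC70 and in MDA-MB-468, EED knockdown, EZH2 cDNA, the lines, the sets and the difference in response. Of the values of members chosen by range, 408 moved by no more than the spread between duplicates and 75 by more. Another floor, the fit of the compared arrays and the replicate block leave a difference of group means unchanged, so values could not move there. Most moved with another control set: 9 against 1 with set b as control, 6 against 0 with set a and 11 against 5 with both. Between the lines, 14 moved and 4 did not with either set alone for HCC70. Signals near or under log2 6 limit what low members can show.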
